A study of Rattus norvegicus with 12 samples.

Results

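Slc11a2, Cybrd1 and Tfrc are genes that act in the uptake of iron by intestinal cells. They were followed in mucosal scrapes of the duodenum and jejunum of Belgrade rats, on arrays whose annotation gave 1 symbol to probe sets of 14217 genes. The members were all probe sets annotated to 1 of these 3 genes alone, which gave 5 of the 31042 probe sets that are not controls. Slc11a2 was read by 1367877_at, the brighter, and 1388059_a_at, the dimmer. Cybrd1 had 1377369_at alone, and Tfrc had 1388750_at, the brighter, and 1371113_a_at, the dimmer. All 5 passed the minimum mean signal of 100 that a probe set needed to be tested.

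The Belgrade rat carries a recessive missense mutation of Slc11a2. Homozygous rats (b/b) were compared with heterozygous rats (+/b), which carry 1 copy of the same allele, so no group had only intact copies. The arrays fell into b/b duodenum, +/b duodenum, b/b jejunum and +/b jejunum, with 3 arrays in each of the 4 groups. Each array held RNA of a group of rats, whose number is not given in the sources used here, nor are their age, sex or diet. Because the mutation changes an amino acid and leaves the transcript in place, the Slc11a2 signal does not check the genotype labels.

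Cybrd1 encodes a brush border ferric reductase that turns dietary ferric iron into ferrous iron. Slc11a2 encodes the divalent metal transporter DMT1, which moves ferrous iron with protons across the brush border and also out of endosomes. Tfrc encodes the transferrin receptor, by which cells, in the gut mainly those of the crypts, take iron from plasma transferrin into endosomes. In mice, transcription of Slc11a2 and Cybrd1 in enterocytes depends on the hypoxia-inducible factor Epas1 when iron is low. The Tfrc transcript carries iron-responsive elements in its 3′ untranslated region, where iron regulatory proteins bind in iron-poor cells and slow its decay.

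The gene starts are shown because Slc11a2 and Cybrd1 differed between the groups in a like way. In the RefSeq annotation of build GRCr8 (the build behind the probe design is not given in the sources used here), Slc11a2 lies on chromosome 7 from 133381878 to 133429921, Cybrd1 on chromosome 3 from 76342231 to 76369846 and Tfrc on chromosome 11 from 81668478 to 81690318. The start table used here, made from RefSeq, holds 2 starts for Slc11a2, which has alternative promoters, and 1 each for Cybrd1 and Tfrc. The Tfrc start lies at the edge of its gene, whereas those of Cybrd1 and Slc11a2 lie within the gene bounds given above, so their windows are not the bases before the outermost annotated start. The lines give the 250 bases before each start in that table, on the strand of the gene, at chr7:133417789-133418038 and chr7:133418940-133419189 (minus strand), chr3:76342343-76342592 (plus strand) and chr11:81690319-81690568 (minus strand). Capitals mark ACGTG or GCGTG on either strand, the core letters that hypoxia-inducible factors bind.
Slc11a2 downstream start: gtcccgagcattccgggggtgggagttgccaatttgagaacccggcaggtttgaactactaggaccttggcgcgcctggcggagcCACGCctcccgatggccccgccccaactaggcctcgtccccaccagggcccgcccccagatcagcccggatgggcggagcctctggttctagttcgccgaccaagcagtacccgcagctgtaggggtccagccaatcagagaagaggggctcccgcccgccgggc
Slc11a2 upstream start: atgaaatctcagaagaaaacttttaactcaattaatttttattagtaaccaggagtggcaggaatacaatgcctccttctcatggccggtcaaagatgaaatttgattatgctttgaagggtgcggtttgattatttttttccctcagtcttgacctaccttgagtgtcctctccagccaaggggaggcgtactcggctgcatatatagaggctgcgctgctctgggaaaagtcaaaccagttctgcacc
Cybrd1: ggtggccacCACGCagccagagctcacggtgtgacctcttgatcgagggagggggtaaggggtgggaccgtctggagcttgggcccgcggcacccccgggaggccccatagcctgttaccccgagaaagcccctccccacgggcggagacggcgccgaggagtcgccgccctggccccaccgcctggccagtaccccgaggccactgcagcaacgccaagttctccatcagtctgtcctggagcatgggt
Tfrc: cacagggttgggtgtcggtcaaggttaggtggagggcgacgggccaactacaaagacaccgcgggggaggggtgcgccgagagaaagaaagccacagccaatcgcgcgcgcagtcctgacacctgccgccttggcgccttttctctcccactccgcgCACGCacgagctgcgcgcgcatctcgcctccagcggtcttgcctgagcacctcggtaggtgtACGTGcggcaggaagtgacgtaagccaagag

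The downstream Slc11a2 window and the Cybrd1 window each held 1 match, in both cases GCGTG read on the other strand. The Tfrc window held 2, and the upstream Slc11a2 window held 0. Of all 33469 windows of the same length, 36.7% held at least 1 match, so these matches are common, and a match in the letters is not evidence of binding.

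In the duodenum of b/b rats, the uptake transcripts had higher signals than in the +/b duodenum. Cybrd1 rose 16.6-fold and Slc11a2 rose 7.03-fold on its dimmer probe set. These were the 2 of 5 member probe sets past the threshold (limma with Benjamini-Hochberg adjustment, 0.05), against 0.0396% of the 17694 tested probe sets called higher. The b/b and +/b arrays did not overlap on any of the 5, a separation that 3.18% of tested probe sets showed in that direction and 8.7% in either. All 5 also had an unadjusted p under 0.05, as did 6.17% of tested probe sets. The median change over all tested probe sets was -0.045 on the log2 scale.

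Cybrd1 signals, scaled so that each array had a trimmed mean of 500, were 5752, 22238 and 20079 in the b/b duodenum, against 599.8, 771 and 1157 in the +/b duodenum. The lowest b/b array was thus still well above the highest +/b array. The change was 4.05 ± 0.41 (limma SE, n = 3 per group) on the scale of log2(signal + 16). Its 95% interval was 3.16 to 4.94 and its limma adjusted p was 0.00112. The SE and interval rest on a spread pooled over all groups, which was unequal. The SD on the log2 scale was 1.08 in the b/b duodenum and 0.47 in the +/b duodenum. In the jejunum it was 0.25 in b/b and 0.29 in +/b rats. When only the duodenal arrays were fitted, Cybrd1 still passed, with a limma adjusted p of 0.0246. The low b/b value came from replicate 1, the array that differed most from the other 11, with a median Spearman correlation of 0.836 against 0.875 to 0.917 elsewhere. Without it the Cybrd1 change was 4.67 (limma adjusted p = 7.32e-06), the largest of the 6 fits that left out 1 array. The smallest was 3.70, without b/b replicate 2, and the highest limma adjusted p was 0.00961, without b/b replicate 3. All 6 passed.

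Slc11a2 on its dimmer probe set read 3341, 7297 and 7824 in the b/b duodenum and 593, 761 and 1156 in the +/b duodenum. Its change was 2.81 ± 0.38 (limma adjusted p = 0.0107). Removing 1 array ended this call in 4 of 6 cases: limma adjusted p was 0.113 and 0.0788 when b/b replicates 2 and 3 were removed, and 0.0824 and 0.0709 when +/b replicates 1 and 2 were. The change stayed between 2.59 and 3.20 over the 6 fits that left out 1 array. Removing +/b replicates 2 and 3, the 2 arrays with unscaled deposited values, together left 1 array in the +/b duodenum. The change was then 3.24.

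On the brighter Slc11a2 probe set the signals were 28450.4, 27501 and 21653 in the b/b duodenum and 3056, 3839 and 6080.1 in the +/b duodenum. The change of 2.63 ± 0.55 was close in size but did not pass (95% interval 1.45 to 3.81, limma adjusted p = 0.312). Its wider error rests on a spread pooled over the 4 groups. The SD on the log2 scale was 1.46 in the b/b jejunum and 0.72 in the +/b jejunum. In the duodenum it was 0.21 in b/b and 0.50 in +/b rats, against 0.68 and 0.48 on the dimmer probe set. Brighter Slc11a2 passed when only the 6 duodenal arrays were fitted (limma adjusted p = 0.0246). The probe sets ranked the b/b arrays differently: replicate 1 was the highest on the brighter one and the lowest on the dimmer one. The genotype differences of the 2 probe sets differed by -0.19 (brighter minus dimmer), which an exact two-sided permutation test did not separate from 0 (p = 0.7, where 3 against 3 arrays cannot go below 0.1).

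**Figure D1:**
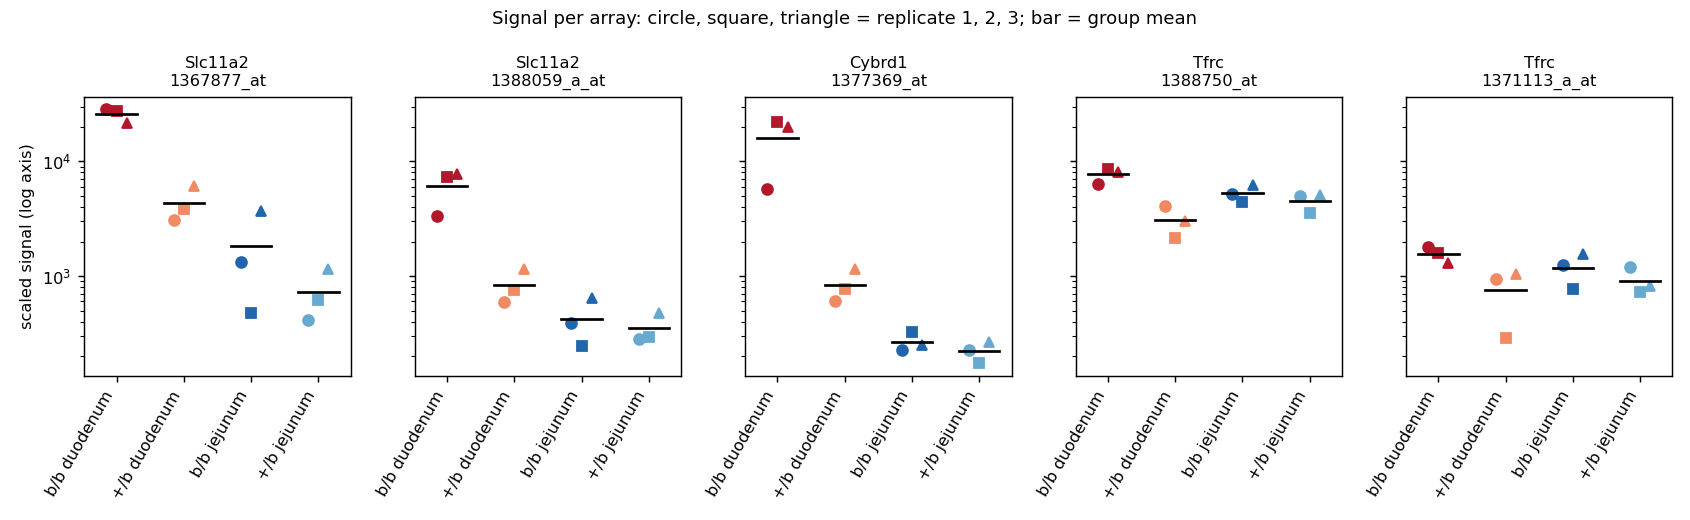
Scaled signal of each array on a log axis, 1 panel per probe set of Slc11a2, Cybrd1 and Tfrc, with groups along the x axis, a symbol for each replicate and a bar at the group mean. The b/b duodenum arrays lie above the +/b duodenum arrays in all 5 panels, and Cybrd1 lies between 5752 and 22238 there, against 599.8 to 1157 in the +/b duodenum.

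Tfrc had smaller differences in the duodenum. Its brighter probe set read 6308, 8653 and 8142 in b/b and 4084, 2137 and 3034 in +/b rats, without overlap. The change was 1.35 ± 0.25 (95% interval 0.82 to 1.89) and did not pass (limma adjusted p = 0.134). The dimmer probe set read 1783, 1584 and 1308 in b/b and 937, 289 and 1034 in +/b rats, a change of 1.21 ± 0.40 (limma adjusted p = 0.748). The value of 289 came from +/b replicate 2, and without that array the change was 0.64.

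In the scrapes, fewer cells of a type and less RNA per cell cannot be told apart, so markers of other cells are given beside these changes. Enterocyte markers (Vil1, Fabp1, Fabp2, Alpi and Apoa4) had 0 of 5 genes called in the duodenum, against 0.0396% of tested probe sets. The changes of these markers were -0.35 to -0.19, with a summed signal of 108200 to 402200 in b/b and 158600 to 294100 in +/b arrays. Blood and reticulocyte markers, which matter for Tfrc since reticulocytes carry the receptor, summed to 12560 to 17880 in the b/b duodenum and 2004 to 3578 in the +/b duodenum over the 8 of 10 genes found. Hbb, a haemoglobin chain, made up most of these sums, with 16621, 11844 and 14488 in b/b and 3274, 3081 and 1792 in +/b arrays. Of the 3 genes bright enough to test, Hbb was called in the duodenum (2.43 ± 0.26, limma adjusted p = 0.00121), against 0.0396% of tested probe sets. Alas2 had 2.35 ± 0.41 (limma adjusted p = 0.105) and Slc4a1 1.21 ± 0.66 (limma adjusted p = 0.805), and neither was called. The blood sums of the jejunum were 10330 to 14400 in b/b and 2027 to 3041 in +/b rats. Hbb (2.37 ± 0.26, limma adjusted p = 0.00236) and Alas2 (2.63 ± 0.41, limma adjusted p = 0.047) were called there, against 0.0339% of tested probe sets. Slc4a1 had -0.61 ± 0.66 in the jejunum and was not called. Proliferation and crypt markers, genes of the cells where Tfrc is known to be abundant, had 1 of 11 members above 0 in the duodenum, against 44.5% of tested probe sets, and a median change of -0.54. In the jejunum 0 of 11 were above 0, against 45.5%, with a median of -0.41. In either segment 0 of 11 were called, against 0.0396% (duodenum) and 0.0339% (jejunum) of tested probe sets. The part of these cells in the Slc11a2, Cybrd1 and Tfrc values was not tested.

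In the jejunum 0 of the 5 probe sets passed (0.0339% of all tested did), 0 had an unadjusted p under 0.05 (1.34% did), and the groups overlapped on each, whereas 7.9% of tested probe sets had no overlap and 3.35% had none with b/b above. Limma adjusted p was 1 for all 5. Cybrd1 read 226, 325 and 251 in b/b and 228, 174 and 268 in +/b rats. All 6 Cybrd1 values lay below the lowest duodenal one, and the difference of 0.24 ± 0.41 had a 95% interval of -0.64 to 1.13. That interval lies wholly below the duodenal one of 3.16 to 4.94, where both use the spread pooled over all groups.

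Jejunal Slc11a2 on its brighter probe set read 1336, 474 and 3676 in b/b and 416, 618 and 1149 in +/b rats. The spread was wide in both genotypes, with replicate 3 the highest in each. The difference was 0.98 ± 0.55 (95% interval -0.20 to 2.16), and it moved to 0.25 when b/b replicate 3 was left out and to 1.71 when b/b replicate 2 was. The dimmer probe set read 389, 246 and 637 in b/b and 280.1, 295 and 472 in +/b rats, again with replicate 3 on top, and its difference was 0.21 ± 0.38.

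Pdx1, a transcription factor of the proximal gut, was also highest in replicate 3 of the jejunum, at 121 against 44.9 and 38.1 in the other b/b arrays and at 127 against 15.1 and 86.3 in the other +/b arrays. Slc40a1, the basolateral iron exporter, behaved alike, with 2586 in b/b replicate 3 against 1045 and 889, and 2186 in +/b replicate 3 against 788 and 2034. S100g, a calcium-binding protein of the duodenum, did not, since b/b replicate 3 had the lowest value of its group, 793. Whether these arrays held more proximal tissue was not tested.

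Jejunal Tfrc differed little between genotypes. The brighter probe set read 5232, 4393 and 6251 in b/b and 5038, 3549.6 and 5047 in +/b rats, a difference of 0.22 ± 0.25 with a 95% interval of -0.31 to 0.76. The dimmer one had 0.35 ± 0.40 (-0.50 to 1.21).

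Between the segments, the uptake genes split. In b/b rats Cybrd1 was 48.9-fold higher in the duodenum than in the jejunum (5.61 ± 0.41 on the log2 scale, limma adjusted p = 1.78e-05). Slc11a2 was 19.1-fold higher on its brighter probe set (4.25 ± 0.55, limma adjusted p = 0.00184) and 14.1-fold higher on its dimmer one (3.81 ± 0.38, limma adjusted p = 0.000224). These 3 of 5 probe sets were called, against 0.418% of tested probe sets called higher in that segment, and they passed in all 6 fits that left out 1 array. In 4 of 5 the duodenal arrays lay wholly above the jejunal ones, as in 5.3% of tested probe sets (14.8% in either direction), and 4 had an unadjusted p under 0.05, against 9.77%. The sizes moved with single arrays: Cybrd1 had 6.24 without b/b duodenum replicate 1, and brighter Slc11a2 had 3.52 without b/b jejunum replicate 2 and 4.98 without b/b jejunum replicate 3. Tfrc had 0.54 ± 0.25 on its brighter probe set (limma adjusted p = 0.502), where duodenum and jejunum did not overlap, and 0.44 ± 0.40 on its dimmer one.

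In +/b rats the same 3 probe sets were higher in the duodenum without overlap, as were 4.71% of all tested, but 0 of the 5 passed (0.0565% of tested probe sets did), while 4 of 5 had an unadjusted p under 0.05, against 5.36% of tested probe sets. The differences were 2.61 ± 0.55 for brighter Slc11a2, 1.21 ± 0.38 for dimmer Slc11a2 and 1.81 ± 0.41 for Cybrd1 (limma adjusted p of 0.16, 0.693 and 0.243). When the segments of the same rats were paired (rat group as a block), brighter Slc11a2 and Cybrd1 passed (limma adjusted p of 0.0208 and 0.0202). Tfrc ran the other way on both probe sets, with -0.59 ± 0.25 and -0.42 ± 0.40 (limma adjusted p of 0.896 and 0.966). The sign of the dimmer one rested on +/b duodenum replicate 2, without which it was 0.15.

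**Figure D2:**
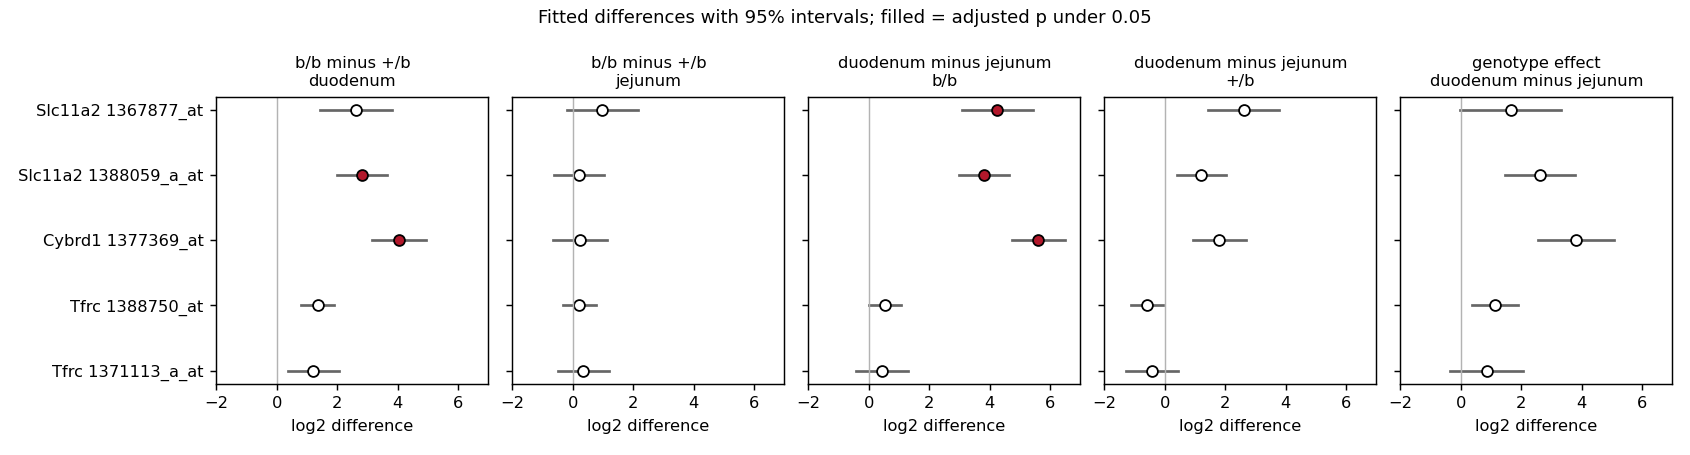
Fitted log2 differences (points) with 95% intervals (bars) for the 5 probe sets in each comparison, filled where the adjusted p was under 0.05. Cybrd1 and dimmer Slc11a2 are filled in the duodenum, 3 probe sets are filled for duodenum minus jejunum in b/b rats, and none is filled in the other panels.

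Duodenum and jejunum of a rat group came from the same animals, so the segment difference can be read within each. Cybrd1 was higher in the duodenum by 4.58, 6.03 and 6.24 in the 3 b/b rat groups and by 1.33, 2.05 and 2.04 in the 3 +/b rat groups. Dimmer Slc11a2 had 3.05, 4.80 and 3.59 in b/b against 1.04, 1.32 and 1.27 in +/b rat groups. Neither gene's genotypes overlapped on these probe sets. Brighter Slc11a2 had 4.40, 5.81 and 2.55 in b/b against 2.83, 2.60 and 2.39 in +/b rat groups, where b/b rat group 3, the one with high jejunal Slc11a2, fell among the +/b values.

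Brighter Tfrc was higher in the duodenum of each b/b rat group, by 0.27, 0.98 and 0.38, and had differences of -0.30, -0.73 and -0.73 in the +/b rat groups. Its dimmer probe set had 0.52, 1.03 and -0.24 in b/b against -0.34, -1.27 and 0.34 in +/b rat groups, which overlapped. Over all tested probe sets, 4.19% had b/b rat groups wholly above +/b rat groups, and 9.72% had no overlap in either direction.

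**Figure D3:**
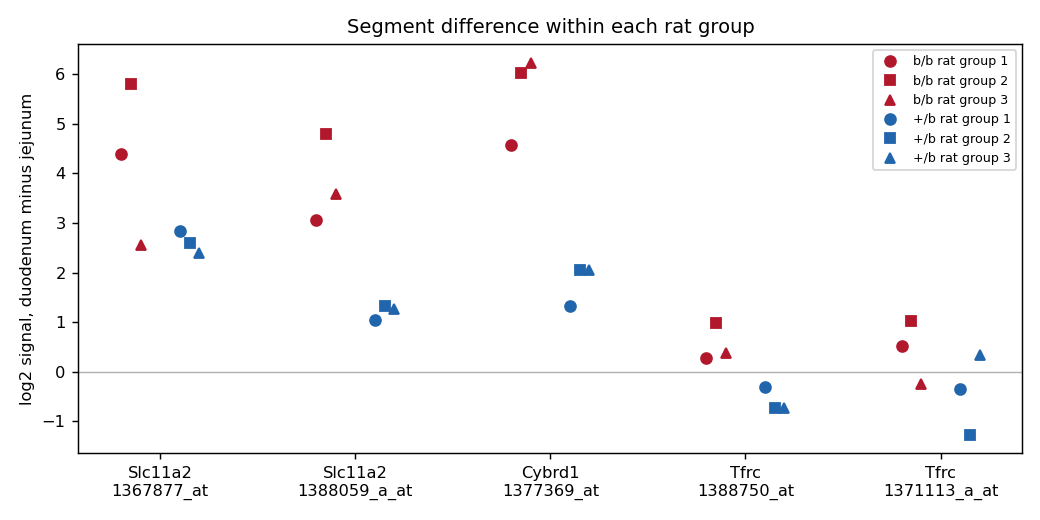
Log2 signal of the duodenum minus that of the jejunum within each rat group, for the 5 probe sets, with b/b rat groups left and +/b rat groups right. Cybrd1 runs from 4.58 to 6.24 in b/b against 1.33 to 2.05 in +/b rat groups, and brighter Tfrc is above 0 in the 3 b/b and below 0 in the 3 +/b rat groups.

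The interaction tested whether the genotype difference of the duodenum differed, in either direction, from that of the jejunum. Its values are the duodenal difference minus the jejunal one. Cybrd1 had the lowest p of all tested probe sets, with a difference of 3.80 ± 0.58 (95% interval 2.55 to 5.06), but its limma adjusted p was 0.252. Dimmer Slc11a2 had 2.60 ± 0.54 (1.45 to 3.76) and brighter Slc11a2 1.65 ± 0.78 (-0.02 to 3.32). Brighter Tfrc had 1.13 ± 0.35 (0.37 to 1.88) and dimmer Tfrc 0.86 ± 0.56 (-0.35 to 2.07), with a limma adjusted p of 1 for these 4. No adjusted p of limma passed for any tested probe set (0 of 17694, or 0%). An unadjusted p under 0.05 was found for 306 (1.73%), among them 3 of the 5 probe sets of these genes. With the rat group as a block Cybrd1 passed (limma adjusted p = 0.0218). Of the 12 fits that left out 1 array it passed in 1, without b/b duodenum replicate 1 (4.43, limma adjusted p = 0.000492). Over those 12 fits the difference ran from 3.46 to 4.43.

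The order of the 4 groups was the same for Cybrd1 and both Slc11a2 probe sets: b/b duodenum, +/b duodenum, b/b jejunum, +/b jejunum. For Cybrd1 the means were 16023 ± 8960.2, 843 ± 286, 267 ± 51.4 and 224 ± 47.2 (SD, n = 3 each), and only the jejunal groups overlapped. For brighter Slc11a2 they were 25868 ± 3681, 4325 ± 1569.5, 1828.5 ± 1657 and 728 ± 379, and the +/b duodenum also overlapped the b/b jejunum. Brighter Tfrc had another order, b/b duodenum 7701 ± 1233, b/b jejunum 5292 ± 930.1, +/b jejunum 4545 ± 862 and +/b duodenum 3085 ± 975. Its neighbours overlapped except for the b/b duodenum against the b/b jejunum.

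Across the 12 arrays, Cybrd1 followed dimmer Slc11a2 closely (Pearson r = 0.977), and after removal of the group means r was 0.657. Brighter Slc11a2 and Cybrd1 had r = 0.899, but -0.021 once the group means were removed. The Tfrc probe sets had r = 0.842 with each other and 0.716 after that removal, and brighter Tfrc had 0.433 with brighter Slc11a2. These are descriptions over arrays that share groups, and the 3 b/b duodenum arrays weigh heavily in them.

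By the same measure, the genes most like brighter Slc11a2 were Ldhd, a D-lactate dehydrogenase (r = 0.945), Ero1a, an oxidase of the endoplasmic reticulum (0.943), Hapln4 (0.938), Tm7sf2 (0.931) and Abhd4 (0.917). Most like Cybrd1 were Slc11a2 itself, on its dimmer probe set (0.977), then Ldhd (0.953), Ankh, a pyrophosphate transporter (0.951), Tbcc (0.936) and Car9, a carbonic anhydrase (0.928). Most like brighter Tfrc were P4ha1, a collagen prolyl hydroxylase (0.891), the lysosomal protease Ctsd (0.870), Trim36 (0.847), Aldh1l1 (0.827) and Khnyn (0.816). Ldhd entered on a different probe set for each gene. Of these 15 matches only Slc11a2 was called between genotypes in the duodenum. Without the b/b duodenum arrays, r was lower for each, from 0.673 for Khnyn to 0.923 for Car9.

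Among 16 tested uptake and endosomal partners of 22 listed, 0 were called between genotypes in either segment, where 0.0396% (duodenum) and 0.0339% (jejunum) of all tested probe sets were. Their median change was -0.12 in the duodenum and 0.02 in the jejunum. The smallest p in the duodenum belonged to Slc39a14, a zinc and iron importer (1.55 ± 0.54, limma adjusted p = 0.768), followed by Slc39a8, a related metal importer (-0.45 ± 0.18), the reductase Cyb561 (0.35 ± 0.18) and Mcoln1, a lysosomal cation channel (0.44 ± 0.25). Between segments 1 of 16 was called, Slc39a8, lower in the duodenum than in the jejunum of b/b rats (-1.02 ± 0.18, limma adjusted p = 0.018), in a comparison where 0.763% of tested probe sets were called.

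Of 11 listed regulators 10 were tested. Between genotypes 0 were called in either segment, where 0.0396% (duodenum) and 0.0339% (jejunum) of all tested probe sets were. In the duodenum the lowest p-values were those of the prolyl hydroxylase Egln3 (1.00 ± 0.28), Hif1a (-0.81 ± 0.25), Epas1 (0.95 ± 0.37) and the ferritin cargo receptor Ncoa4 (2.31 ± 0.93), with limma adjusted p of 0.66, 0.702, 0.789 and 0.789. In b/b rats Epas1 was the 1 of 10 called between segments, higher in the duodenum than in the jejunum (2.11 ± 0.37, limma adjusted p = 0.0153). Of all tested probe sets, 0.763% were called in that comparison and 0.418% were called higher. In +/b rats Epas1 had 1.17 ± 0.37 (limma adjusted p = 0.693). The part of Epas1 in the Slc11a2 and Cybrd1 values was not tested.

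Of 8 listed storage and export genes 6 were tested. Between genotypes 0 were called, against 0.0396% (duodenum) and 0.0339% (jejunum) of all tested probe sets. The median change of the 6 genes was 0.01 in the duodenum and -0.05 in the jejunum. Atp7a, a copper exporter, had 1.14 ± 0.46 and Slc40a1 0.86 ± 0.46 in the duodenum. Hamp, the gene of the iron hormone hepcidin, had -0.30 ± 0.45 and Pcbp1, an iron chaperone, -0.09 ± 0.21. Slc40a1 was higher in the duodenum than in the jejunum of b/b rats (3.41 ± 0.46, limma adjusted p = 0.00246), the 1 of 6 called there, against 0.418% of tested probe sets called higher and 0.763% called either way.

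**Figure D4:**
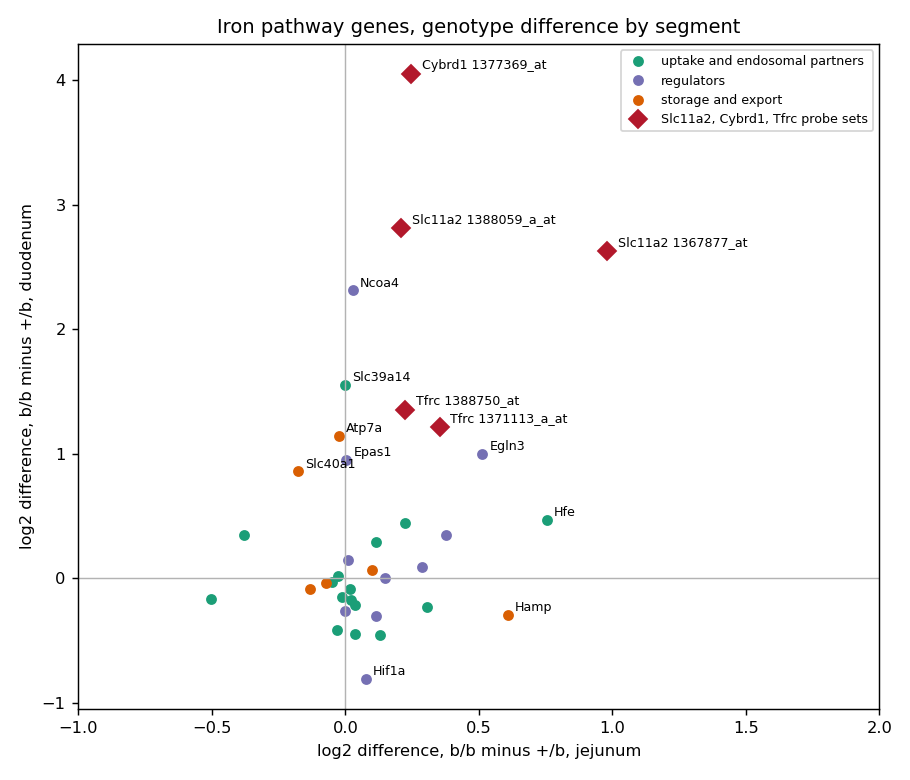
Log2 difference of b/b minus +/b in the duodenum (y axis) against that in the jejunum (x axis) for the 5 probe sets of Slc11a2, Cybrd1 and Tfrc (diamonds) and the tested genes of 3 pathway lists (circles). The diamonds lie between 1.21 and 4.05 on the y axis and between 0.21 and 0.98 on the x axis.

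Facts of the arrays bear on all of these values. The 2 arrays deposited unscaled were replicates 2 and 3 of the +/b duodenum. Their trimmed means, 51.6 and 126.6 against 500.2 on the other 10, were multiplied by 9.69 and 3.95, their noise included. After scaling, array medians lay between 108.5 and 181.5. Pdx1 and S100g were called higher in the duodenum than in the jejunum of both genotypes (changes of 3.48 to 4.61), as the segment labels say. Exocrine pancreas markers summed to 1268 to 7152 in the b/b duodenum and 1007 to 137100 in the +/b duodenum, and the part of pancreas RNA in the results was not tested.

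**Figure D5:**
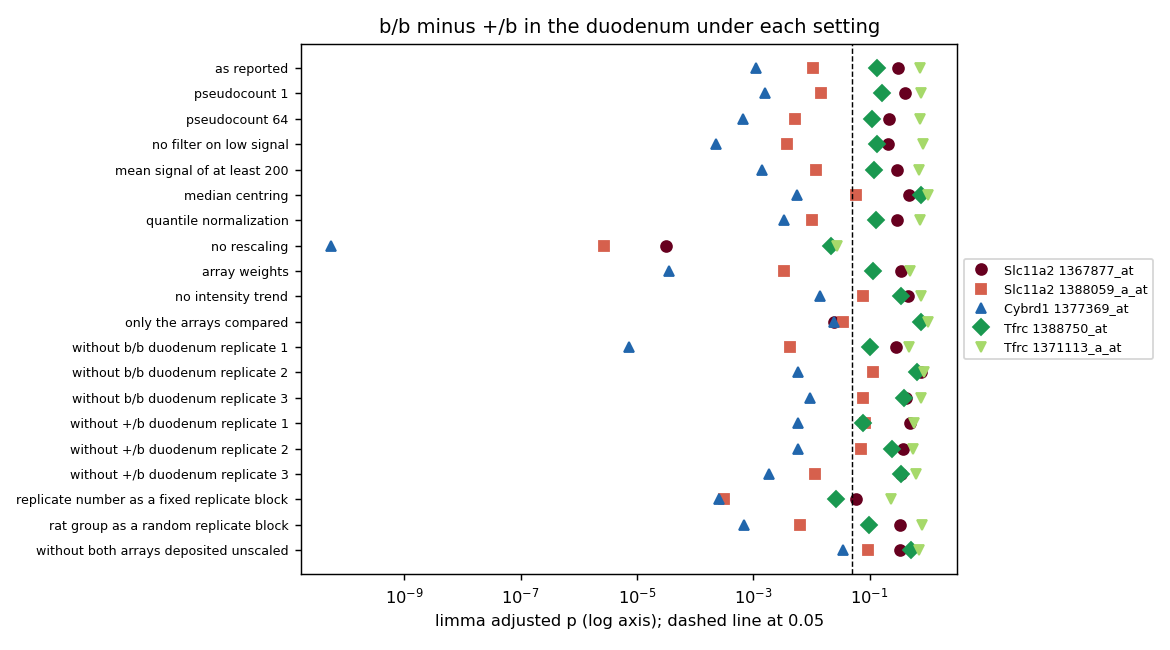
Limma adjusted p (log x axis, dashed line at 0.05) of the b/b minus +/b difference in the duodenum for the 5 probe sets, under each processing setting and with single arrays left out (rows). Cybrd1 lies left of the line in every row shown, and dimmer Slc11a2 crosses it in several. The row without both arrays deposited unscaled had 1 array in the +/b duodenum.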

How the data were processed

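Total RNA of duodenal and jejunal scrapes was hybridised to 12 Affymetrix arrays. The authors deposited linear signal intensities per probe set, for which MAS5 is named for 10 arrays in the submitters' processing notes (version not given in the sources used here). Each array was multiplied to a 2% trimmed mean of 500. The 57 control probe sets were removed, and the 17694 probe sets with a mean of at least 100 were tested on log2(signal + 16) with limma 3.58.1 (R 4.3.3). The 4 group means were fitted over 12 arrays (8 residual degrees of freedom, eBayes with intensity trend, two-sided, Benjamini-Hochberg over all tested probe sets, threshold 0.05). Intensities carry no counts, and the number of arrays limits the precision.

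Genes named were the members, their 5 most correlated genes, and per pathway list those called in any comparison and, for the genotype comparison in the duodenum, the 4 of smallest p, by the brightest probe set. The rule also took the 4 of smallest p in the other comparisons, whose values are not printed unless called. Of 92 symbols on the pathway and marker lists 83 matched a probe set with 1 gene. The members and lists were chosen with earlier results of these data known. Pdx1, S100g, Slc40a1, Mki67 and Top2a in single arrays were shown after their values were seen. In simulated data with known changes, the duodenal genotype contrast recovered 33.3% of changes of 1, 76.5% of 2 and 97.3% of 4 (log2 scale) among 17694 probe sets. The interaction recovered 8.8%, 48.5% and 88% of the same sizes. The simulated noise was normal, independent between arrays and of equal spread in the 4 groups. The real arrays had unequal spreads, paired rat groups and 2 arrays deposited unscaled, so these shares may not hold for them.

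Same-numbered duodenum and jejunum arrays of a genotype came from the same rat group according to the series design, and their deviations from the group means correlated at 0.158 to 0.382. Same-numbered arrays that differed in both genotype and segment, from different rats, correlated at 0.028 to 0.451, so these correlations are not particular to shared animals and the pairing rests on the design. P-values of the fits without that block leave the pairing out. Same-numbered jejunum arrays of different genotypes correlated at 0.119 to 0.415, and duodenum arrays at -0.059 to 0.165. No 2 arrays held identical values. Whether rat groups were processed apart is not given. The p-values rest on the spread between these arrays, each of a group of rats, and not on that between single animals.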

Additional observations from a re-analysis of the deposited data

Results flagged for a closer look

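Brighter Tfrc (1388750_at) was higher in the duodenum than in the jejunum of each of 3 b/b rat groups and lower in each of 3 +/b rat groups. The dimmer Tfrc probe set did not show this, since b/b rat group 3 had -0.24 and +/b rat group 3 had 0.34. Over all tested probe sets, 4.19% had b/b rat groups wholly above +/b rat groups, with or without a change of sign. On the brighter probe set the difference between the genotypes was 1.13 ± 0.35 on the log2 scale. Its test, the interaction in limma, gave an unadjusted p of 0.0064 and an adjusted p of 1, so it did not pass over all probe sets. The +/b values used both arrays that had been deposited unscaled. Without them, which left 1 array in the +/b duodenum, the difference was 0.68.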

How the results depend on the processing

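Of 475 values of single probe sets under other settings, 450 kept their direction and side of the threshold, 14 newly passed, 7 no longer passed and 4 changed sign. The fit without both arrays deposited unscaled kept 1 +/b duodenum array, so its count of calls is left out. The count of member probe sets called in the duodenum, 2 as reported, was 1 with median centring or without an intensity trend. It was 5 without rescaling, 3 with only the arrays compared, and 1 to 2 with single arrays left out. With the replicate number as a replicate block it was 3, brighter Tfrc passing too (limma adjusted p = 0.026), although same-numbered b/b and +/b rats were different animals. In the jejunum the count was 0 under every setting run, and for the segments in b/b rats it was 3 under every setting run. For the segments in +/b rats, 0 as reported, it was 2 without rescaling (the Tfrc probe sets, lower in the duodenum), 1 with only the arrays compared, 2 with the rat group as a fixed replicate block and 0 with any single array left out. For the interaction, 0 as reported, it was 1 (Cybrd1) without rescaling, with array weights and with the rat group as a fixed replicate block, and 0 to 1 with single arrays left out. Leaving out rescaling moved the median of all probe sets by its own construction, to 1.51 in the duodenal genotype comparison, so these changes stand relative to it. Signs changed for dimmer Slc11a2 between jejunal genotypes without b/b jejunum replicate 3 (-0.13, range with single arrays left out -0.13 to 0.53) and between +/b segments without rescaling (-0.45), and for dimmer Tfrc between +/b segments without +/b duodenum replicate 2 (0.15, range -0.74 to 0.15) or both unscaled arrays (0.076). The count over all probe sets with single arrays left out ran from 5 to 8 (7 as reported) in the duodenum, 2 to 6 (6) in the jejunum, 33 to 235 (135) between b/b segments, 2 to 21 (10) between +/b segments and 0 to 2 (0) for the interaction. Other causes were not tested.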
